A study of Mus musculus with 24 samples.

Results

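The extensor digitorum longus (EDL), a fast-twitch muscle of the mouse shin, was compared with the soleus (SOL), a slow-twitch muscle of the calf, in control mice. The comparison rests on 12 of the 24 RNA-seq libraries of the series, namely the 6 EDL and 6 SOL libraries labelled Cre-, and its members are the 14138 genes that passed a filter on low counts, of 24537 in the deposited table. The series was made to study the Yamanaka factors (OSKM, written 4F) in myofibers, and the Cre- libraries are its controls. All 12 libraries came from 2-month-old mice of genotype Acta1-Cre-/4Fhet, which carry the tetO-driven 4F cassette at Col1a1 and the rtTA gene behind a loxP-flanked stop cassette at ROSA26, but no Cre under the myofiber promoter of Acta1. Doxycycline (Dox) was given in the drinking water at 1 mg/ml, and 2 mice each were taken after 2.5 days, after 5.5 days and after 8.5 days. No mouse without Dox or without the transgenes entered, so the values describe muscles of these treated controls. RNA was taken from whole muscle, which holds nerve, vessel, connective tissue and fat beside the myofibers, and polyA RNA was sequenced.

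Muscle fibres come as slow fibres, which contract slowly, resist fatigue and burn fat in many mitochondria, and as fast fibres, which contract quickly and draw more on glycogen and glycolysis. The types are told apart by the myosin heavy chain they hold. Myh7 marks slow type I fibres, and Myh2, Myh1 and Myh4 mark the fast types IIA, IIX and IIB, in the order from more oxidative to more glycolytic. Most other proteins of the contractile unit, the sarcomere, also come as a fast and a slow isoform from separate genes.

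Between 36088781 and 54679082 reads were counted in a library (median 43685697 in EDL and 41308725 in SOL muscles, n = 6 each). A gene with a count of 0 could still have had 3 counts, or 0.0549 to 0.0831 CPM, by counting error alone. FPKM values are counts scaled by exon length in kilobases and by the library's total count. Each EDL library was paired with the SOL library of the same day and replicate number, taken as 2 muscles of 1 mouse. Pou5f1 held 0 to 5 counts and Sox2 0 to 10 counts in the 12 libraries. The Y-linked genes and Xist gave the same pattern in both muscles of 6 of 6 numbers. The 2 mice of 2.5 days expressed Y-linked genes and the 4 mice of 5.5 and 8.5 days Xist. Sex therefore cannot be told apart from 2.5 days against the later days, while the mice of 5.5 and 8.5 days shared their sex. Since the 2 mice of a day shared their sex, these genes cannot check the pairing within a day.

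Muscle type separated the libraries on the first principal component of the 500 most variable genes, which held 77.3% of the variance. Of the 14138 genes, 1667 (11.8%) were higher in EDL and 1944 (13.8%) higher in SOL muscles, at a Benjamini-Hochberg adjusted p under 0.05 in edgeR's quasi-likelihood test with the mouse as a block and an absolute log2 difference over 0.5. In all 25.5% of the genes were called, and counts in the lists below are to be read against these shares. The sign was the same in 6 of 6 mice for 3248 of the 3611 called genes, and the same on all 3 days for 3585. On TMM-scaled counts, the ranges of the 6 EDL and 6 SOL libraries did not overlap for 2848 genes (20.1% of those tested), of which 2137 were called. Differences over 16-fold were found for 27 genes in the direction of EDL and 41 in that of SOL muscles. For single genes below, overlap is that of the FPKM ranges printed. All log2 differences below are EDL over SOL, so positive values are higher in EDL, and their median over all genes tested was -0.0234. The share of calls in the direction of EDL was 46.2% and fell to 36.1% (1352 against 2389 genes) when counts were scaled by library size alone, where the median was -0.102. The 10 genes with most counts took 18.9% to 23.0% of all counts in EDL and 14.2% to 17% in SOL libraries.

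**Figure D1:**
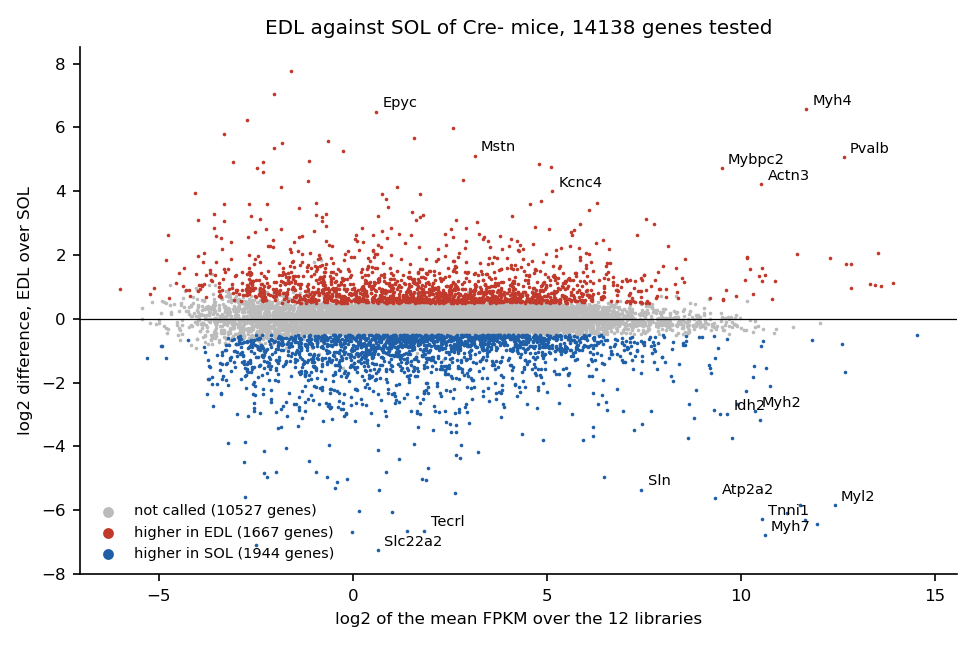
Each point is 1 of the 14138 genes tested, with the log2 of its mean FPKM over the 12 libraries on the x axis and its log2 difference (EDL over SOL) on the y axis. The 1667 genes higher in EDL and 1944 higher in SOL muscles are coloured, and the genes of the contractile apparatus lie at the right, from 6.56 for Myh4 to -6.78 for Myh7.

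A fast and a slow myosin heavy chain stood near the 2 ends of the range of differences. Myh4, the type IIB chain (chromosome 11, 67237812 to 67260447, GRCm38), lay at 3804 to 7905 FPKM (median 6990) in EDL and 21.1 to 521 FPKM (median 74.7) in SOL muscles. Myh7, the type I chain (chromosome 14, 54970688 to 54994549), lay at 4.82 to 88.6 FPKM (median 27.9) in EDL and 1848 to 3700 FPKM (median 3393) in SOL muscles. The ranges of both genes were far apart, and the differences were 6.56 ± 0.77 (SE, adjusted p = 9.09e-05) and -6.78 ± 0.43 (adjusted p = 1.65e-06). Myh2, the type IIA chain, was higher in SOL muscles, with 180.4 to 358 FPKM (median 336) in EDL and 1682 to 3102 FPKM (median 2235) in SOL muscles (-2.89 ± 0.18, adjusted p = 1.65e-06) and no overlap. Myh1, the type IIX chain, had 929.6 to 1886 FPKM (median 1287) in EDL and 618 to 1357 FPKM (median 997) in SOL muscles, and these ranges overlapped (0.56 ± 0.21, adjusted p = 0.0524). As shares of the summed FPKM of these 4 chains, Myh4 took 79.5%, Myh1 16.3%, Myh2 3.66% and Myh7 0.350% in EDL muscles (medians of 6). In SOL muscles Myh7 took 48.7%, Myh2 36.8%, Myh1 16% and Myh4 1.11%. Single SOL libraries held 28.3% to 42.9% of the sum as Myh2 and 34.8% to 55.9% as Myh7, and single EDL libraries 73.6% to 83.2% as Myh4.

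The slow and fast isoforms differed in how sharply they were divided. Slow troponins, a slow tropomyosin and slow myosin chains were many times lower in EDL than in SOL muscles. Tnni1, slow troponin I, had 11.2 to 108 FPKM (median 37.2) in EDL and 2415 to 3534 FPKM (median 3010) in SOL muscles (-6.29 ± 0.38, adjusted p = 1.17e-06). Tnnc1 (slow troponin C) differed by -6.30, Tnnt1 (slow troponin T) by -6.09, Myl3 (essential light chain) by -6.43, Myl2 (regulatory light chain) by -5.83 and Tpm3 (slow tropomyosin) by -5.83, all with ranges apart and the same sign in 6 of 6 mice. Fast isoforms stayed abundant in SOL muscles. Tnni2, fast troponin I, had 13060 to 15910 FPKM (median 15400) in EDL and 5922 to 10750 FPKM (median 6849) in SOL muscles (1.05 ± 0.13, adjusted p = 0.000114). Tnnt3, Tnnc2, Myl1 and Mylpf, the fast troponin T, troponin C and light chains, differed by 1.12, 1.09, 1.90 and 2.06, again with no overlap. A sharper group of fast genes was formed by Mybpc2 (fast myosin-binding protein C; medians 1452 and 68 FPKM, 4.72) and Actn3 (the fast Z-disc actinin; medians 2791 and 148 FPKM, 4.22).

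**Figure D2:**
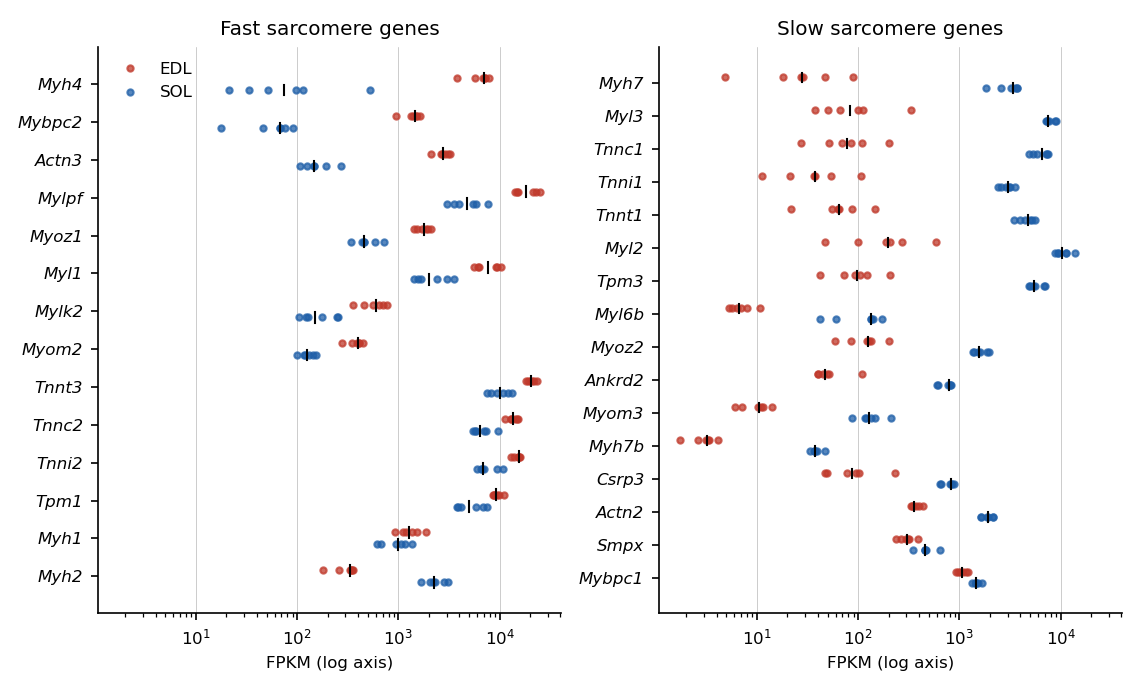
FPKM on a log axis of the 14 fast (left) and 16 slow sarcomere genes (right), with 1 point per library (6 EDL, red; 6 SOL, blue) and a bar at the median. Slow genes such as Tnni1 and Myh7 span wide gaps, fast troponins lie close together, and Myh2 is the fast gene that was higher in SOL muscles.

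Of the 14 fast sarcomere genes, 12 were higher in EDL and 1, Myh2, in SOL muscles, with a median difference of 1.77 (-0.0234 over all genes; 11.8% and 13.8% of all genes were called in these directions). Of the 16 slow genes, 15 were higher in SOL and 0 in EDL muscles, with a median of -3.77. These lists were written with the textbook division of isoforms in view, so their directions are a check of the muscle labels. Mybpc1, slow myosin-binding protein C, was the slow gene that was not called (-0.41 ± 0.11, adjusted p = 0.013), with 918 to 1211 FPKM (median 1052) in EDL and 1337 to 1681 FPKM (median 1477) in SOL muscles. Smpx, a small protein of the costamere, was called with overlapping ranges (-0.55 ± 0.14, adjusted p = 0.00801), and fell under the limit without the mouse of 2.5 days replicate 2 (-0.46) or of 5.5 days replicate 1 (-0.48). In 16 pairs of fast and slow isoforms, the fast member was higher in EDL muscles in 16 and the slow member higher in SOL muscles in 14. The ratio of fast to slow FPKM did not overlap between the muscles in any of the 16 pairs. For troponin I it ranged from 144 to 1364 in EDL and 1.68 to 4.45 in SOL muscles, for troponin C from 75.2 to 532 in EDL and 0.757 to 1.82 in SOL muscles and for alpha-actinin from 5.2 to 9.47 in EDL and 0.0498 to 0.125 in SOL muscles. The mean sum of both isoforms was 13690 FPKM (EDL) and 13210 FPKM (SOL) for troponin C, the pair with the most similar sums, and 4428 FPKM (EDL) and 1190 FPKM (SOL) for enolase, the pair with the least similar ones. It was 6470 FPKM (EDL) and 3236 FPKM (SOL) for the myosin heavy chains, and 11000 FPKM (EDL) and 4823 FPKM (SOL) for the SERCA pumps.

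The EDL library of 8.5 days replicate 1 held the highest level among EDL libraries for 13 of the 16 slow genes (88.6 FPKM of Myh7), and that of 2.5 days replicate 2 the lowest for 11 (4.82 FPKM of Myh7). In SOL muscles the highest Myh4 level, 521 FPKM, was also that of 8.5 days replicate 1, against 21.1 to 113 FPKM in the other 5 libraries.

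The 250 bases before the RefSeq transcript start (GRCm38.p6) are shown for the pair of myosins with the largest opposite differences and for a slow troponin and light chain, since the sharpest division between the muscles lies in such genes. They are written 5′ to 3′ on the strand of the gene. Capitals mark matches on either strand to the E-box CANNTG, the MCAT element CATTCC, the TATA box TATAAA and the MEF2 motif, which may overlap each other.
Myh4 promoter (chr11:67237562-67237811, + strand): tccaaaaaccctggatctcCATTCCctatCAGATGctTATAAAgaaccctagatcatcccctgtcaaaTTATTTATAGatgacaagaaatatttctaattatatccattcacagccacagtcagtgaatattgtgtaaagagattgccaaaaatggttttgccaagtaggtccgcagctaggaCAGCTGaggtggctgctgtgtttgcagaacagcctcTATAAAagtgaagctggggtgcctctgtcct
Myh7 promoter (chr14:54994550-54994799, - strand): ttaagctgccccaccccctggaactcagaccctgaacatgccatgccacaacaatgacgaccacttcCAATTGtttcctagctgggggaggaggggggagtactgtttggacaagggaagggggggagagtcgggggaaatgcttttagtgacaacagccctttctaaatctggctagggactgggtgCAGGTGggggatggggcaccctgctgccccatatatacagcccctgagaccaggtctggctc
Tnni1 promoter (chr1:135799171-135799420, + strand): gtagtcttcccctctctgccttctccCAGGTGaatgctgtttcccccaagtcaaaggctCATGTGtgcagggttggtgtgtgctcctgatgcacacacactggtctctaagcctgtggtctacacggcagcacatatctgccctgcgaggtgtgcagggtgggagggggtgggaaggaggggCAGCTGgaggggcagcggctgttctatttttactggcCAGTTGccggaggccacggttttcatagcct
Myl3 promoter (chr9:110763428-110763677, + strand): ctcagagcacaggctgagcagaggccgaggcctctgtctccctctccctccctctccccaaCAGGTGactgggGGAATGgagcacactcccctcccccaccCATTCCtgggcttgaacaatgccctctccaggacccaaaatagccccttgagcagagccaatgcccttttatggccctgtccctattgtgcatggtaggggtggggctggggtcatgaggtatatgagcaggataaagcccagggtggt
The Myh4 window held 1 MEF2 match, 1 MCAT match, 2 E-boxes and 3 TATA boxes, of which 1 lies within the MEF2 match. That of Myh7 held 2 E-boxes, that of Tnni1 4 E-boxes, and that of Myl3 2 MCAT matches and 1 E-box. Of 10186 genes tested with a RefSeq start within 100 bases of the start in the table, 57.5% held an E-box in this window, 10.6% an MCAT match, 6.6% a TATA box and 1.8% a MEF2 match. The shares were 59.1%, 11.2%, 8.3% and 2.0% among 1175 genes higher in EDL, and 62.5%, 12.1%, 8.9% and 2.6% among 1327 genes higher in SOL muscles. The MEF3 element (TCAGGTT) was found in 2.8% of all, 3.5% of EDL and 2.2% of SOL windows. These motifs were chosen with the values known and the matches are a description of letters.

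Some slow-muscle transcripts also carry microRNAs, which were not measured by these libraries. The gene of Myh7b, a slow myosin related to Myh7, spans Mir499, and that of Myh7 spans Mir208b. Myh7b had 1.73 to 4.12 FPKM (median 3.18) in EDL and 33.2 to 47 FPKM (median 37.3) in SOL muscles (-3.62 ± 0.14, adjusted p = 1.43e-07). Linc-md1, a muscle non-coding RNA, spans Mir206 and Mir133b and had 0 to 0.214 FPKM (median 0.0353) in EDL and 0.903 to 6.59 FPKM (median 2.72) in SOL muscles (-5.37 ± 0.65, adjusted p = 0.000107). Their RefSeq mature sequences are given with the seed (bases 2 to 8) in capitals, because the host RNAs are among the genes that divide the muscles most.
mmu-miR-208b-3p: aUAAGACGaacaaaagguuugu
mmu-miR-499-5p: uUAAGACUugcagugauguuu
mmu-miR-206-3p: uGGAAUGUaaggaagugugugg
mmu-miR-133b-3p: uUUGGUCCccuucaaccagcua
The seeds of miR-208b-3p and miR-499-5p shared 6 of 7 bases. Mhrt, a non-coding RNA on the other strand of Myh7, had 0 to 0.202 FPKM (median 0.0287) in EDL and 4.03 to 7.87 FPKM (median 4.94) in SOL muscles (-6.67). The labels call the libraries stranded, but whether the counting used strand is not stated, so its reads and those of Myh7 cannot be told apart. Linc-md1 and Mhrt had 0 counts in at least 1 EDL library, and their fitted differences depend on the prior count of the model.

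Calcium handling divided along the same isoform lines. Pvalb (parvalbumin, a calcium buffer of fast fibres; chromosome 15, 78191112 to 78204237) had 9966 to 15950 FPKM (median 11910) in EDL and 178 to 584 FPKM (median 420.4) in SOL muscles (5.06 ± 0.23, adjusted p = 2.6e-07). Every EDL library held many times the level of every SOL library. Among the calcium pumps of the sarcoplasmic reticulum, Atp2a1 (SERCA1) had 8089 to 12390 FPKM (median 11330) in EDL and 2803 to 4064 FPKM (median 3685) in SOL muscles (1.71) and Atp2a2 (SERCA2) 10.7 to 55.9 FPKM (median 23.2) in EDL and 951 to 1639 FPKM (median 1211) in SOL muscles (-5.62). Both pumps had ranges apart. Sln (sarcolipin, an inhibitor of SERCA) was the second strongest SOL gene of the list, with 5.71 to 13 FPKM (median 6.79) in EDL and 197 to 477 FPKM (median 328) in SOL muscles (-5.36 ± 0.28, adjusted p = 5.15e-07). Pln (phospholamban, the related inhibitor) had 0.54 to 1.1 FPKM (median 0.80) in EDL and 0.965 to 2.52 FPKM (median 1.68) in SOL muscles (-1.03 ± 0.19, adjusted p = 0.00148), with overlap. The calcium stores Casq1 and Casq2 (calsequestrins) differed by 1.59 and -2.88.

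Ryr1, the main calcium release channel of skeletal muscle, was not called, with 212 to 314 FPKM (median 272) in EDL and 175 to 308 FPKM (median 226) in SOL muscles (0.30 ± 0.12, adjusted p = 0.064), and neither was Cacna1s (0.40 ± 0.08, adjusted p = 0.0028), its voltage sensor. Among their partners, Cacng1 (1.19), Cacna2d1 (1.02), Jph1 (1.20), Jph2 (1.21) and Trdn (0.91) were higher in EDL muscles. Ryr3, a release channel found mainly outside skeletal muscle, was scarce in both, with 0.0181 to 0.0768 FPKM (median 0.0348) in EDL and 0.112 to 0.367 FPKM (median 0.131) in SOL muscles (-1.93 ± 0.33, adjusted p = 0.00111). In all, 9 of 29 calcium handling genes were higher in EDL and 7 in SOL muscles, against 11.8% and 13.8% of all genes. Their median was 0.193.

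Most genes of glycolysis were higher in EDL muscles. Of 22 genes tested, 15 were higher in EDL and 2 in SOL muscles, and the median was 1.20 (0.962 to 1.38 in single mice). Of all genes tested 11.8% and 13.8% were called in these directions. Aldoa, the muscle aldolase, had 7306 to 11970 FPKM (median 10380) in EDL and 2798 to 3800 FPKM (median 3172) in SOL muscles (1.72 ± 0.13, adjusted p = 3.75e-06). Pfkm, the phosphofructokinase that sets the pace of the pathway, had 1437 to 2629 FPKM (median 2430) in EDL and 813 to 963 FPKM (median 921) in SOL muscles (1.38). Eno3 (2.04), Tpi1 (1.56), Pgk1 (1.37), Pgam2 (1.20), Gapdh (1.18) and Pkm (1.20) followed, each with ranges apart. The largest differences of the list were those of the 2 glycerol-3-phosphate dehydrogenases that carry electrons from glycolysis to mitochondria. Gpd1 had 279 to 446 FPKM (median 318) in EDL and 31 to 51.8 FPKM (median 40) in SOL muscles (3.14 ± 0.13, adjusted p = 1.99e-07) and Gpd2 45.1 to 61.2 FPKM (median 53.7) in EDL and 3.36 to 6.21 FPKM (median 4.07) in SOL muscles (3.68 ± 0.17, adjusted p = 2.75e-07). Pfkfb3 (2.13) was also higher in EDL muscles. So was Fbp2 (2.03), a fructose bisphosphatase that acts against the step of Pfkm and is counted in the list.

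The 2 genes on the SOL side were Ldhb, the heart-type lactate dehydrogenase, and Hk1 (-0.58 ± 0.11, adjusted p = 0.00217), a hexokinase of many tissues. Without the mouse of 8.5 days replicate 1, Hk1 was under the limit (-0.47). Ldhb had 108 to 180.5 FPKM (median 152) in EDL and 864 to 1393 FPKM (median 1110) in SOL muscles (-2.87 ± 0.13, adjusted p = 2.75e-07), while Ldha had 1657 to 2033 FPKM (median 1731) in EDL and 423 to 645 FPKM (median 487) in SOL muscles (1.90 ± 0.10, adjusted p = 5.57e-07). Neither pair of ranges overlapped. Hk2, the hexokinase of muscle, had a difference of 0.01 ± 0.10 (adjusted p = 0.935), with 52.9 to 122 FPKM (median 90.6) in EDL and 70.1 to 109.7 FPKM (median 89.2) in SOL muscles. Among transporters, Slc16a3 (MCT4, lactate export) had 115 to 175 FPKM (median 142) in EDL and 7.2 to 21.8 FPKM (median 12) in SOL muscles (3.62 ± 0.19, adjusted p = 5.79e-07) and Slc16a1 (MCT1, lactate uptake) 12 to 16.6 FPKM (median 14.8) in EDL and 26.6 to 48.3 FPKM (median 36.5) in SOL muscles (-1.19 ± 0.11, adjusted p = 1.87e-05). Slc2a4, the insulin-responsive glucose transporter, was not called (0.20 ± 0.08, adjusted p = 0.0645). Car3, a carbonic anhydrase of slow fibres, had 119 to 406 FPKM (median 286) in EDL and 1558 to 3287 FPKM (median 2731) in SOL muscles (-3.17 ± 0.13, adjusted p = 1.99e-07). Of the 12 genes of glucose and lactate transport and pH, 4 were higher in EDL and 3 in SOL muscles (median 0.11). The shares of all genes were 11.8% and 13.8%.

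Genes of glycogen breakdown were higher in EDL muscles. The 3 tested subunits of phosphorylase kinase, which activates glycogen phosphorylase, were higher in EDL muscles, with differences of 2.64 for Phkg1, 2.47 for Phka1 and 2.28 for Phkb. Pygm, the phosphorylase, had 1234 to 2390 FPKM (median 2143) in EDL and 784 to 898 FPKM (median 802) in SOL muscles (1.34 ± 0.16, adjusted p = 0.000117). Gbe1, the branching enzyme, was higher in SOL muscles (-0.58 ± 0.12, adjusted p = 0.00246). Gys1 (glycogen synthase) and Gyg (glycogenin) had differences of -0.46 and -0.50 and did not pass the limit of 0.5. In total 7 of 11 genes were higher in EDL and 1 in SOL muscles (median 1.30), against 11.8% and 13.8% of all genes. The 7 included Ppp1r3a and Ppp1r3c, which are not enzymes of glycogen breakdown. Of the 9 genes of phosphocreatine and adenylates, 4 were higher in EDL and 2 in SOL muscles. Ckm, cytosolic creatine kinase, had 13060 to 18660 FPKM (median 16920) in EDL and 7403 to 10640 FPKM (median 8354) in SOL muscles (1.03), and Ckmt2, the mitochondrial form, 959.9 to 1279 FPKM (median 1107) in EDL and 1518 to 2637 FPKM (median 1789) in SOL muscles (-0.70). The AMP deaminases were exchanged, with 1.28 for Ampd1 and -2.41 for Ampd3.

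Every fatty acid oxidation gene of the list was higher in SOL muscles. All 20 genes tested were called in that direction, against 13.8% of all genes, with a median of -1.04 and single differences from -0.59 to -1.36. Ranges were apart for 19 of them, with Echs1 as the exception. Cpt1b, which admits fatty acids to mitochondria, had 119 to 144 FPKM (median 128) in EDL and 254 to 339.7 FPKM (median 282) in SOL muscles (-1.08 ± 0.07, adjusted p = 2.38e-06). Acadm, the medium-chain dehydrogenase, had 112 to 178 FPKM (median 143) in EDL and 306 to 407 FPKM (median 339.7) in SOL muscles (-1.21), and Hadha, of the trifunctional protein, 88.3 to 111 FPKM (median 89.7) in EDL and 210.1 to 282 FPKM (median 257) in SOL muscles (-1.32). Of 15 genes of lipid uptake and storage, 12 were higher in SOL and 0 in EDL muscles (median -1.29). Fabp3, the fatty acid carrier of muscle, had 150.4 to 345 FPKM (median 245) in EDL and 1153 to 2072 FPKM (median 1636) in SOL muscles (-2.68 ± 0.16, adjusted p = 1.07e-06). Bdh1, a ketone body enzyme, had 1.77 to 7.04 FPKM (median 3.7) in EDL and 35 to 88.3 FPKM (median 52.5) in SOL muscles (-3.80 ± 0.43, adjusted p = 7.45e-05). Lpl (-1.94), Dgat2 (-2.66), Plin5 (-1.76) and Cd36 (-1.29) also lay on the SOL side.

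The 7 adipocyte markers were also all higher in SOL muscles (median -2.25), against 13.8% of all genes. Their summed level was 225.8 to 367 FPKM in EDL and 452 to 1028 FPKM in SOL libraries. Their median in single mice ran from -4.50 to 0.067. In the mouse of 2.5 days replicate 2, where it was 0.067, the medians of fatty acid oxidation and of lipid uptake were -1.35 and -1.52, the lowest of the 6 mice. In the mouse of 5.5 days replicate 2, where the adipocyte median was -4.50, that of fatty acid oxidation was -0.826, the highest of the 6. Its lipid uptake median was -1.22, within a range of -1.52 to -1.20 over the mice. The part of fat cells in the differences of lipid genes was not tested. Adipoq, an adipokine, had 1.26 to 7.81 FPKM (median 4.32) in EDL and 3.63 to 46.4 FPKM (median 23.5) in SOL muscles, with overlap (-2.25 ± 0.54, adjusted p = 0.00711). Cidea, a lipid droplet protein of brown fat, had 0.26 to 0.834 FPKM (median 0.529) in EDL and 5.05 to 6.57 FPKM (median 5.82) in SOL muscles (-3.40 ± 0.16, adjusted p = 3.04e-07), while Ucp1 held at most 2 counts in any library. In whole muscle, fewer cells of a type and less RNA per cell cannot be told apart.

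Of 36 complex I genes 0 were higher in EDL and 1, Ndufb3 (-0.77 ± 0.09, adjusted p = 6.71e-05), in SOL muscles (median -0.0806). Of 37 genes of complexes III to V the counts were 0 and 1, Cox8a (-0.67 ± 0.07, adjusted p = 4.07e-05) (median -0.228). Mitochondrial ribosomal proteins gave 0 and 5 of 78. Genes of the mitochondrial chromosome are not among those analysed. In the mice of 2.5 days the complex I medians were -0.264 and -0.361, and in those of 8.5 days both 0.166. Within the pyruvate dehydrogenase complex and TCA cycle, 2 of 25 genes were higher in EDL and 3 in SOL muscles. The median was -0.116, and of all genes 11.8% and 13.8% were called in these directions. The exception in size was Idh2, the NADP-dependent isocitrate dehydrogenase, with 108 to 212 FPKM (median 177) in EDL and 1166 to 1789 FPKM (median 1440) in SOL muscles (-2.99 ± 0.10, adjusted p = 1.02e-07). Idh3a, the catalytic subunit of the NAD-dependent enzyme, went the other way (0.93 ± 0.09, adjusted p = 2.49e-05), and Cs, citrate synthase, was not called (-0.30 ± 0.09, adjusted p = 0.0222). Mb, myoglobin, had 2257 to 4292 FPKM (median 2883) in EDL and 7940 to 11610 FPKM (median 10440) in SOL muscles (-1.68 ± 0.15, adjusted p = 1.24e-05), and the catalase gene was also higher in SOL muscles. Of the 16 genes of oxygen handling and antioxidants, 2 were higher in each muscle (median 0.00445), near the share of all genes called (25.5%).

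**Figure D3:**
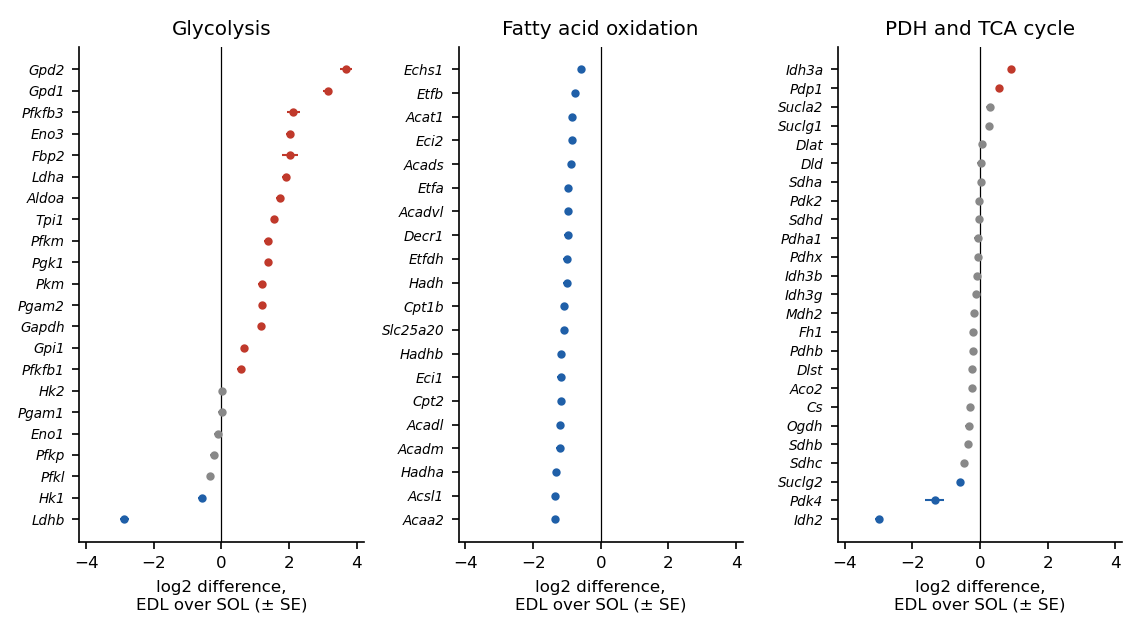
Log2 difference (EDL over SOL) with its SE for each gene of glycolysis, fatty acid oxidation and the pyruvate dehydrogenase complex with the TCA cycle, red where higher in EDL, blue where higher in SOL, grey where not called. Of glycolysis 15 genes lie to the right and 2 called genes to the left, all 20 fatty acid oxidation genes lie to the left, and most TCA cycle genes lie near 0 except Idh2.

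Esrrb and Esrrg, nuclear receptors of the ERR family, were higher in SOL muscles. Esrrb had 1.05 to 1.98 FPKM (median 1.79) in EDL and 9.99 to 17.6 FPKM (median 13.9) in SOL muscles (-2.93 ± 0.10, adjusted p = 9.5e-08) and Esrrg 2.75 to 4.72 FPKM (median 3.29) in EDL and 10.4 to 18.4 FPKM (median 12.3) in SOL muscles (-1.86 ± 0.14, adjusted p = 4.98e-06), both without overlap. Esrra, the most abundant of the family, differed by -0.28 and was not called. Ppargc1a, the coactivator PGC-1 alpha, had 4.93 to 7.02 FPKM (median 6.31) in EDL and 4.04 to 6.21 FPKM (median 4.49) in SOL muscles, a difference in the direction of EDL muscles under the limit (0.47 ± 0.10, adjusted p = 0.00297). Perm1 (-0.79) and Ppara (-0.83) were higher in SOL muscles, and Prkaa2, a catalytic subunit of AMP kinase, in EDL muscles (0.95 ± 0.10, adjusted p = 3.29e-05). Of 17 such genes 2 were higher in EDL and 4 in SOL muscles (median -0.163), against 11.8% and 13.8% of all genes. The promoters of all tested genes held an ERR half-site (AAGGTCA, either strand) in 2.8% of cases, 2.6% for genes higher in EDL and 3.2% for genes higher in SOL muscles.

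Transcription factors with known parts in fibre type were called in both directions, 12 of 32 higher in EDL and 10 higher in SOL muscles. Their median was 0.0755, and 11.8% and 13.8% of all genes were called in these directions. Maf and Mafa, large Maf factors that act on the IIB myosin gene, were on the EDL side. Maf had 19.6 to 33.8 FPKM (median 30.5) in EDL and 3.87 to 8.19 FPKM (median 4.91) in SOL muscles (2.51 ± 0.10, adjusted p = 1.43e-07) and Mafa 23.8 to 47.6 FPKM (median 28.4) in EDL and 3.18 to 11.3 FPKM (median 5.85) in SOL muscles (2.43 ± 0.28, adjusted p = 8.96e-05), neither with overlap. Sox6, a repressor of slow genes, had 17.3 to 23.2 FPKM (median 18.9) in EDL and 4.28 to 6.52 FPKM (median 5.46) in SOL muscles (1.95 ± 0.10, adjusted p = 3.65e-07). Tbx15, a factor of glycolytic fibres, had 97.1 to 165 FPKM (median 129.9) in EDL and 38.8 to 63.8 FPKM (median 55.9) in SOL muscles (1.40 ± 0.08, adjusted p = 7.93e-07). Eya1 and Eya4, transcriptional coactivators, differed by 1.24 and 1.97.

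On the SOL side, Prox1, a factor of slow fibres, had 0.106 to 0.336 FPKM (median 0.185) in EDL and 1.2 to 2.49 FPKM (median 1.29) in SOL muscles (-2.83 ± 0.23, adjusted p = 6.95e-06). Vgll2, a cofactor of Tead proteins, had 34.9 to 58.6 FPKM (median 38.5) in EDL and 82.6 to 127 FPKM (median 114) in SOL muscles (-1.28 ± 0.09, adjusted p = 3.75e-06), Tead1 differed by -0.65 and Tead4 by -0.83. Nfatc2 had 2.25 to 3.64 FPKM (median 2.57) in EDL and 5.71 to 11 FPKM (median 8.41) in SOL muscles (-1.55 ± 0.17, adjusted p = 5.87e-05), while Nfatc1, which signals slow activity, was not called (0.33 ± 0.08, adjusted p = 0.00918). Among the myogenic factors, Myod1 was higher in EDL (1.59 ± 0.20, adjusted p = 0.000163) and Myog in SOL muscles (-0.95 ± 0.14, adjusted p = 0.000344), with ranges apart for both. Myf6, the most abundant of them, differed by 0.28 and was not called. Mef2c, the most abundant Mef2 gene, differed by 0.02 ± 0.15 (adjusted p = 0.908). Nr4a3, an activity-induced receptor, was higher in EDL muscles with overlapping ranges (2.67 ± 0.35, adjusted p = 0.000205).

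Calcineurin, the calcium-activated phosphatase, and its feedback inhibitors were on different sides. Its catalytic and regulatory subunits were higher in EDL muscles, with 1.14 for Ppp3ca, 1.26 for Ppp3cb and 0.84 for Ppp3r1. Rcan1, an inhibitor whose transcription calcineurin activates, had 26.1 to 34.1 FPKM (median 29.2) in EDL and 68.7 to 179.8 FPKM (median 117) in SOL muscles (-1.79 ± 0.16, adjusted p = 1.27e-05), and Rcan2 differed by -1.74. The SOL libraries lay above the EDL libraries for both. Camk2a, a calcium/calmodulin kinase, had 137 to 186 FPKM (median 155) in EDL and 32.3 to 40 FPKM (median 36.9) in SOL muscles (2.19 ± 0.08, adjusted p = 1.43e-07). Of 11 genes 5 were higher in EDL and 2 in SOL muscles (median 0.0859), against 11.8% and 13.8% of all genes.

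**Figure D4:**
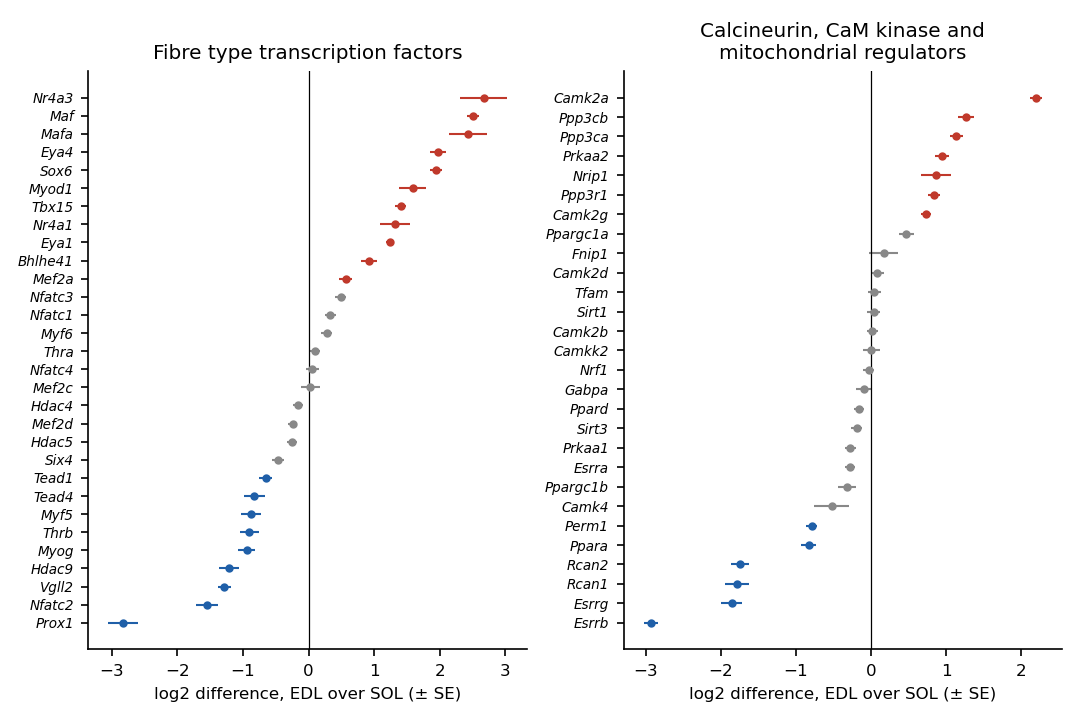
Log2 difference (EDL over SOL) with its SE for 30 of the 32 fibre type transcription factors (left) and for 11 calcineurin and CaM kinase genes with 17 mitochondrial regulators (right), coloured by call as red for EDL, blue for SOL and grey for none. Maf, Mafa and Nr4a3 stand at the EDL end and Prox1 and Esrrb at the SOL end.

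Of 17 genes of membrane excitability, 7 were higher in EDL and 4 in SOL muscles (median 0.326), against 11.8% and 13.8% of all genes. Kcnc4, a fast potassium channel, had 55.2 to 72.3 FPKM (median 67.5) in EDL and 2.59 to 7.46 FPKM (median 4.52) in SOL muscles (4.00 ± 0.22, adjusted p = 6.96e-07), and Kcnc1 of the same family differed by 2.27. Scn4a, the muscle sodium channel, and Clcn1, the chloride channel, differed by 0.71 and 0.94. Beta subunits of the sodium-potassium pump differed in both directions. Atp1b2 had 65.4 to 114 FPKM (median 78.3) in EDL and 8.51 to 18.8 FPKM (median 16.8) in SOL muscles (2.64 ± 0.15, adjusted p = 7.7e-07), while Atp1b1 (-0.73) was higher in SOL muscles. At the neuromuscular junction 4 of 15 genes were higher in EDL and 5 in SOL muscles (median -0.209), beside the same shares of all genes. Ache, acetylcholinesterase, had 29.6 to 44.2 FPKM (median 33.6) in EDL and 8.71 to 12.9 FPKM (median 11.4) in SOL muscles (1.71 ± 0.12, adjusted p = 2.99e-06), and Chrne, the adult receptor subunit, differed by 1.15. Musk, the receptor kinase that organises the junction, had 0.872 to 1.84 FPKM (median 1.11) in EDL and 2.0 to 7.06 FPKM (median 3.44) in SOL muscles (-1.62 ± 0.19, adjusted p = 0.000101), and Ncam1 differed by -1.67.

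Growth regulators were led by Mstn. Myostatin, which limits muscle mass (chromosome 1, 53061640 to 53068079), had 11.9 to 21.2 FPKM (median 18.4) in EDL and 0.223 to 1.3 FPKM (median 0.457) in SOL muscles (5.11 ± 0.28, adjusted p = 6.9e-07). Wnt4, a secreted Wnt, had 6.2 to 13.5 FPKM (median 9.82) in EDL and 0.747 to 3.32 FPKM (median 1.37) in SOL muscles (2.80 ± 0.18, adjusted p = 2.01e-06). Neither gene overlapped between the muscles. Gdf11, the close relative of Mstn, and Deptor, an mTOR inhibitor, differed by 1.54 and 1.93, and Fst, follistatin, which binds myostatin, by -1.0. Of the ubiquitin ligases of atrophy, Fbxo32 was higher in SOL muscles with overlapping ranges (-0.67 ± 0.17, adjusted p = 0.0102), and Trim63 was not called, with medians of 148 and 155 FPKM (adjusted p = 0.997). Of 20 genes 8 were higher in EDL and 4 in SOL muscles (median 0.0861), against 11.8% and 13.8% of all genes.

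Of the 7 small heat shock proteins on the list of chaperones, 5 were higher in SOL muscles, and Hspb3 (-0.14) and Hspb8 (-0.03) were not called. Hspb7 had 96.3 to 226 FPKM (median 157) in EDL and 1043 to 1574 FPKM (median 1191) in SOL muscles (-2.99 ± 0.16, adjusted p = 6.54e-07), and Cryab, a crystallin that protects the sarcomere, had 533 to 683 FPKM (median 581) in EDL and 2064 to 3878 FPKM (median 2740) in SOL muscles (-2.12 ± 0.11, adjusted p = 5.57e-07). Hspb6 (-1.48), Hspb1 (-1.57) and Hspb2 (-0.76) followed, and Hspa1a and Hspa1b, near-identical copies whose values are uncertain, differed by -2.90 and -2.49. Of 18 genes 8 were higher in SOL and 0 in EDL muscles (median -0.338), against 13.8% and 11.8% of all genes. Among 12 immediate early genes, which respond within minutes to activity or handling, 7 were higher in SOL and 1 in EDL muscles. The shares of all genes were the same 13.8% and 11.8%. The gene higher in EDL muscles was Nr4a1 (1.32 ± 0.23, adjusted p = 0.0012), and the list median was -0.743. Most of these 12 genes had overlapping ranges, as Egr1 did with 1.01 to 3.42 FPKM (median 1.48) in EDL and 1.81 to 28.2 FPKM (median 5.22) in SOL muscles (-1.64).

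Genes that pattern the limb also divided these muscles of the hindlimb. Of 51 Hox, Tbx, Irx and related genes 40 were tested, and 9 were higher in EDL and 10 in SOL muscles (median -0.278). Of all genes tested 11.8% and 13.8% were called in these directions. Tbx3 had 0.845 to 1.92 FPKM (median 1.2) in EDL and 5.26 to 7.03 FPKM (median 6.38) in SOL muscles (-2.23 ± 0.13, adjusted p = 9.74e-07) and Tbx4, a hindlimb factor, 1.03 to 2.14 FPKM (median 1.26) in EDL and 3.0 to 4.83 FPKM (median 3.64) in SOL muscles (-1.36). Irx5 was on the EDL side, with 0.946 to 1.47 FPKM (median 1.07) in EDL and 0.0288 to 0.213 FPKM (median 0.147) in SOL muscles (3.27 ± 0.32, adjusted p = 2.82e-05). None of the 3 had overlapping ranges. Hoxa11 and Hoxa10 were higher in EDL muscles (1.43 and 0.87), and Hoxd8, Hoxd9 and Hoxc11 in SOL muscles (-0.91, -0.77 and -0.71). Hoxc10, the most abundant Hox gene of the list, was not called (0.25 ± 0.07, adjusted p = 0.012).

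The genes with the largest differences outside these lists were less abundant. On the EDL side, Epyc, a proteoglycan of cartilage, had 0.875 to 7.31 FPKM (median 2.56) in EDL and 0 to 0.122 FPKM (median 0.0122) in SOL muscles (6.5), Cyp4f39, a cytochrome P450, 8.26 to 14.1 FPKM (median 12.2) in EDL and 0.129 to 0.324 FPKM (median 0.193) in SOL muscles (5.97), and Cntnap2, a neuronal adhesion protein, 5.23 to 7.28 FPKM (median 5.54) in EDL and 0.0562 to 0.335 FPKM (median 0.103) in SOL muscles (5.66). Tspan8, a tetraspanin, had 57.5 to 78.9 FPKM (median 64.7) in EDL and 1.02 to 3.45 FPKM (median 2.9) in SOL muscles (4.77 ± 0.20, adjusted p = 1.98e-07). Mybph, a relative of myosin-binding protein C, differed by 4.84. On the SOL side, Slc22a2, an organic cation transporter, had 0 to 0.0436 FPKM (median 0.0146) in EDL and 0.292 to 8.13 FPKM (median 2.36) in SOL muscles (-7.26), Tecrl, a reductase-like protein of heart, 0.0186 to 0.20 FPKM (median 0.0351) in EDL and 4.26 to 11.7 FPKM (median 5.85) in SOL muscles (-6.64), and F2, prothrombin, 0.0109 to 0.151 FPKM (median 0.0342) in EDL and 2.74 to 7.35 FPKM (median 3.5) in SOL muscles (-6.06). Their ranges were apart in each case. The other genes of this rank, of unknown or less certain function, were Gm2176 (5.58), Lrtm2 (5.25) and 2310008N11Rik on the EDL side and A730036I17Rik (-6.67) and Ces5a (-6.03) on the SOL side. Slc22a2, Tecrl, F2, A730036I17Rik and Ces5a held few or 0 counts in some EDL libraries, and Epyc, Gm2176 and Lrtm2 in some SOL libraries, so their fitted differences depend on the prior count. F2 is made mainly by liver, and the liver marker Alb was not called (-1.29 ± 0.51, adjusted p = 0.0619), with 43.8 FPKM in the SOL library of 8.5 days replicate 2 and at most 6.4 FPKM in the other 11 libraries. Acta1, skeletal actin, had 16180 to 21100 FPKM (median 19230) in EDL and 24650 to 33450 FPKM (median 28800) in SOL muscles (-0.51 ± 0.14, adjusted p = 0.0131). It was not called without the mouse of 2.5 days replicate 1 (-0.44), 5.5 days replicate 2 (-0.44) or 8.5 days replicate 1 (-0.47).

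Of 10 Schwann cell markers 9 were higher in EDL and 0 in SOL muscles (median 1.24), and their summed level was 102 to 282 FPKM in EDL and 62.0 to 198 FPKM in SOL libraries. The median of the list was -0.245 in the mouse of 8.5 days replicate 1 and 0.864 to 1.99 in the other 5 mice. The 5 erythroid genes were higher in EDL muscles (median 0.872), with a summed level of 314 to 1677 FPKM in EDL and 302 to 473 FPKM in SOL libraries. Their median was -0.153 in the mouse of 8.5 days replicate 1, 0.0823 in that of 5.5 days replicate 1 and 0.441 to 1.99 in the others. Of these 5 genes, Hba-a1 and Hba-a2 are near-identical copies with uncertain values, which were not called without the mouse of 2.5 days replicate 1 (0.67 and 0.68), 2.5 days replicate 2 (both 0.81) or 5.5 days replicate 2 (0.71 and 0.72). Of 12 endothelial markers 0 were higher in EDL and 1, Emcn (-0.53), in SOL muscles (median -0.288). Of 9 pericyte and smooth muscle markers Acta2 (-0.52) and Cspg4 (-1.12) were higher in SOL muscles. Of 9 fibroblast and 9 macrophage markers, Dcn (0.65) and Mrc1 (0.62) were higher in EDL muscles. Of 7 tendon markers Fmod (0.64) and Kera (1.31) were higher in EDL and Scx (-1.33) in SOL muscles. Acta2 was not called without the mouse of 2.5 days replicate 1 (-0.49), 5.5 days replicate 2 (-0.45) or 8.5 days replicate 1 (-0.35), nor Emcn without that of 2.5 days replicate 1 (-0.47). Of 6 satellite cell markers 3 were higher in SOL and 0 in EDL muscles, namely Pax7, which defines these stem cells (-0.77 ± 0.13, adjusted p = 0.000977), Calcr (-1.10) and Myf5 (-0.88). Of 6 neutrophil markers 1 was tested and not called, and of 6 lymphocyte markers 0 were tested. Beside these marker counts, 11.8% of all genes tested were higher in EDL and 13.8% in SOL muscles. The parts of these cells in the differences of other genes were not tested.

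**Figure D5:**
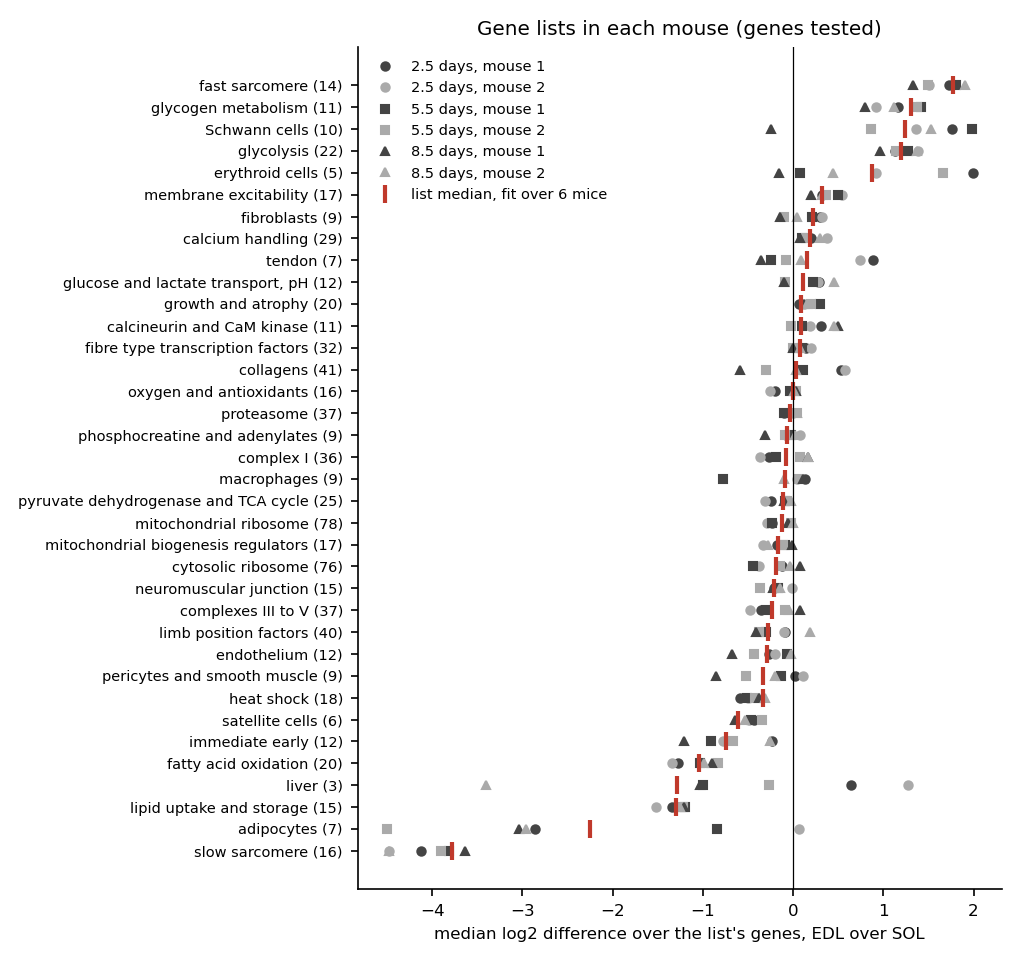
Median log2 difference (EDL over SOL) of each list with at least 3 genes tested, in each of the 6 mice (grey and black symbols by day) and from the fit over all mice (red bar), with the number of genes tested in brackets. The 6 mice lie closer together for the fast sarcomere, glycolysis and fatty acid oxidation lists than for adipocytes, Schwann cells, erythroid cells and liver. For the slow sarcomere list they run from -4.48 to -3.64.

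Of 76 cytosolic ribosomal proteins 0 were higher in EDL and 1, Rps13 (-0.65), in SOL muscles (median -0.186), and of 37 proteasome genes 0 and 1, the immunoproteasome subunit Psmb9 (-0.97) (median -0.0357). Psmb9 missed the threshold without the mouse of 2.5 days replicate 1 (-0.95). Of 41 collagens 7 were higher in EDL and 4 in SOL muscles, near the share of all genes called (25.5%; median 0.0347). Their summed level was lower at 5.5 days than on the other days in both muscles, with 156 and 255 FPKM in the EDL libraries of 5.5 days against 1171 to 1780 FPKM on the other days, and 214 and 258 FPKM against 613 to 1776 FPKM in SOL muscles. Col1a1, the main collagen of bone and tendon and the gene that hosts the 4F cassette, had 20.1 to 489.9 FPKM (median 397) in EDL and 25.1 to 457 FPKM (median 132) in SOL muscles (0.71 ± 0.33, adjusted p = 0.107).

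The difference between the muscles was also compared between days. In edgeR's test of the muscle-by-day term 0 of 14138 genes (0%) passed an adjusted p of 0.05, with 946 at an unadjusted p under 0.05, and DESeq2's likelihood ratio test called 91. The 5 genes with the smallest p were Dupd1, Sytl2, Odf3l2, Pdk4 and Nupr1, with adjusted p between 0.119 and 0.132. Pdk4, which shuts pyruvate out of the TCA cycle, had 45.2 to 171 FPKM (median 142) in EDL and 178 to 595 FPKM (median 201) in SOL muscles, and its difference was -1.87 at 2.5 days, -0.22 at 5.5 days and -1.90 at 8.5 days. It stood at 45.2 and 54.6 FPKM in the EDL libraries of 2.5 days and at 561 and 595 FPKM in the SOL libraries of 8.5 days. Odf3l2 differed by 4.93, 4.76 and 0.29 on the 3 days. In contrasts for the single days, 1269, 1292 and 1357 genes were higher in EDL and 1405, 1748 and 1542 in SOL muscles at 2.5, 5.5 and 8.5 days, and 0 of the called genes was called in the other direction on any single day.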

How the data were processed

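RNA was measured in whole EDL and SOL muscles of Cre- mice, 2 mice at each of 3 days. Per the labels and the study's methods, the authors made polyA libraries with a stranded kit, aligned single-end reads with STAR 2.5.3a to mm10 and counted uniquely aligned reads over RefSeq exons with HOMER; whether the counting used strand is not given in the sources used here. The deposited table holds these counts, not normalised, and the 12 columns used sum to 36088781 to 54679082. Counting error is small at this depth, so the spread of the muscle difference between mice sets the precision. With mouse as a block, differences in level between mice are set aside. The p-values measure the spread of the EDL to SOL difference over these 6 mice.

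Genes were filtered with edgeR's filterByExpr (minimum count 10) and tested with edgeR 4.0.16 in R 4.3.3 (TMM scaling, quasi-likelihood test, Benjamini-Hochberg adjustment), with mouse as a block. Genes were called at an adjusted p under 0.05 where the log2 difference also exceeded 0.5 in size. The muscle-by-day term was tested in the same way. FPKM values used the exon length in the table and the total count. The pairing rests on the shared day and replicate number. Deviations of same-numbered samples from their group means correlated at 0.488, 0.191 and 0.165 on the 3 days. With deviations from the means of all 6 mice, own numbers correlated at 0.370 to 0.600 and other numbers at -0.482 to 0.498. The best partner had the same number for 6 EDL and 5 SOL libraries. Sex-linked genes gave 1 pattern per number, but the mice of a day shared their sex, so they cannot check the pairing within a day. Replicate libraries differed beyond sampling noise, so none was counted as a repeat. DESeq2 1.42.0, other scalings, filters, thresholds and models without the block, single days and each mouse left out were tried as alternatives. The pipeline was tested on simulated data.

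The members and gene lists were chosen with earlier results of these data known. Named genes were the 12 per direction with the largest differences (at least 1 FPKM, the same sign in all 6 mice), the 6 per direction with the largest difference in FPKM, all sarcomere, calcium handling and fibre type factor genes and isoform pairs, the leading members of other lists, and the 5 leading genes of the days test; of these the text gives a part singly and the rest as counts. Acadm, Calcr, Cd36, Clcn1, Cpt1b, Cs, Deptor, Dgat2, Echs1, Fbp2, Gdf11, Gys1, Hadha, Hk2, Hoxc11, Hoxd8, Hoxd9, Hspa1b, Hspb1, Hspb2, Hspb3, Hspb8, Kcnc1, Linc-md1, Myh13, Myh3, Myh6, Myh8, Pfkfb3, Pfkm, Pgam2, Pgk1, Phkb, Pkm, Plin5, Ppara, Ppargc1a, Ppp3ca, Ppp3r1, Scn4a and Tpi1 were named after their values were seen. Promoters and microRNAs were read from RefSeq (GRCm38.p6); 10804 of 14138 genes matched by symbol, chromosome and strand. Of the called genes, 745 overlap another gene, whose reads may be shared. The other 12 libraries of the series entered 1 alternative fit only. A few genes of the lists are not reported here singly.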

Additional observations from a re-analysis of the deposited data

Results flagged for a closer look

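Of 428 groups of 6 values examined for the genes and lists described here, 51 held 1 value far from the other 5, with a gap to its neighbour over 0.625 of the group's range (Dixon's 95% critical value for 6 samples). Chance alone flags about 1 in 20 groups, and genes of 1 library are not independent. Each level is given with that of the nearest other library of the same muscle.

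The median difference of the macrophage markers was -0.772 in the mouse of 5.5 days replicate 1, and the next lowest mouse had -0.102. Casq1 (3185 against 2284 FPKM), Eno3 (5322 against 4354 FPKM), Hspb8 (199.8 against 170.3 FPKM), Ldha (2033 against 1791 FPKM) and Pgk1 (333 against 262 FPKM) were highest in the EDL library of 2.5 days replicate 2. A730036I17Rik (0.0647 against 0.0203 FPKM), Casq2 (60.7 against 33 FPKM), Cd36 (106 against 70.8 FPKM), Esrrg (4.72 against 3.37 FPKM), Fst (2.54 against 1.77 FPKM), Mhrt (0.202 against 0.0444 FPKM), Myl3 (331 against 111 FPKM), Pfkfb3 (78.1 against 33.5 FPKM), Ppp3r1 (70.2 against 62.8 FPKM) and Tead1 (34.1 against 24.1 FPKM) were highest in the EDL library of 8.5 days replicate 1. Gys1 (120.0 against 149.6 FPKM) was lowest in the EDL library of 8.5 days replicate 1. Hspa1b (1.29 against 0.731 FPKM), Klf4 (17 against 9.3 FPKM), Mafa (47.6 against 32.2 FPKM), Myh13 (7.98 against 4.51 FPKM) and Myh6 (3.26 against 2.15 FPKM) were highest in the EDL library of 8.5 days replicate 2. Clcn1 (58.3 against 66 FPKM), Gbe1 (21.4 against 27.5 FPKM), Jph1 (65 against 79.5 FPKM) and Prkaa2 (23.4 against 32.2 FPKM) were lowest in the EDL library of 8.5 days replicate 2. Pgam2 (1197 against 971 FPKM), Pgk1 (138 against 105 FPKM), Ppp3ca (28.4 against 25.1 FPKM) and Trdn (195 against 142 FPKM) were highest in the SOL library of 2.5 days replicate 2. Cacna1s (132 against 173 FPKM) was lowest in the SOL library of 2.5 days replicate 2. Mhrt (7.87 against 5.31 FPKM), Psmb9 (37.5 against 6.74 FPKM) and Rps13 (311 against 249.9 FPKM) were highest in the SOL library of 5.5 days replicate 1. Kcnc1 (8.49 against 6.0 FPKM) was highest in the SOL library of 5.5 days replicate 2. Cntnap2 (0.335 against 0.115 FPKM), Egr1 (28.2 against 8.1 FPKM), Mstn (1.3 against 0.541 FPKM), Mybph (7.54 against 2.17 FPKM), Myh4 (521 against 113 FPKM), Myh8 (15.8 against 4.86 FPKM), Pfkfb3 (14.1 against 7.98 FPKM), Pygm (898 against 820.4 FPKM) and Scx (41.9 against 22.3 FPKM) were highest in the SOL library of 8.5 days replicate 1. A730036I17Rik (3.52 against 1.97 FPKM), Alb (43.8 against 6.4 FPKM), Ces5a (5.11 against 2.36 FPKM), F2 (7.35 against 3.89 FPKM), Nr4a3 (2.27 against 0.589 FPKM), Prox1 (2.49 against 1.33 FPKM) and Ryr3 (0.367 against 0.148 FPKM) were highest in the SOL library of 8.5 days replicate 2. The cause of these single values was not tested.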

How the results depend on the processing

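No called gene was called in the opposite direction under any alternative run. Of 3525 values of the 196 genes named in the text under the alternatives, 3356 kept their direction and their side of the threshold, 88 lost the call, 41 gained it and 40 had the other sign, all of genes that were not called. Of these 40 values, of 11 genes, 1 passed the threshold, namely that of Dupd1 at 5.5 days alone (-1.17). With 2.5 days alone the values of other sign were 0.75 for Alb, 0.031 for Hspb3, 0.10 for Hspb8, -0.44 for Mef2c, 0.39 for Nupr1, 0.064 for Trim63 and -0.98 for Xist. With 5.5 days alone they were -0.0195 for Col1a1, 0.21 for Myh8 and 0.16 for Trim63, and with 8.5 days alone -0.18 for Hk2. With library size alone they were -0.017 for Dupd1, -0.068 for Hk2 and -0.056 for Mef2c, and without the libraries of 5.5 days -0.051 for Hk2, 0.0079 for Hspb8, -0.034 for Mef2c and 0.0024 for Nupr1. In the fit of all 24 libraries they were 0.0101 for Hspb8 and 0.037 for Trim63. Trim63 also had 0.012 with DESeq2 and with its size factors, 0.0066 with no filter, and 0.0062 and 0.0068 without the replicate block, with day and muscle and with muscle alone. When each mouse was left out, the values ran from -0.18 to 0.38 for Dupd1, -0.035 to 0.092 for Hk2, -0.0873 to 0.041 for Hspb8, -0.12 to 0.13 for Mef2c and -0.0102 to 0.078 for Trim63. The counts of genes higher in EDL and in SOL muscles were 642 and 839 with an absolute log2 difference over 1, and 3164 and 3478 with no limit on the difference. When each mouse was left out, they ran from 1637 to 1806 and from 1681 to 1996. For the muscle-by-day term, 91 genes passed in DESeq2's likelihood ratio test. Without the replicate block, which treats the muscles as unpaired, 1476 and 1703 genes were called with muscle alone in the model and 1661 and 1904 with day and muscle, and 2 genes passed the muscle-by-day test without the block. With DESeq2 the counts were 1686 and 1834, and with library size alone 1352 and 2389. Calls of named genes lost when 1 mouse was left out were those of Acta1, Acta2, Emcn, Hba-a1, Hba-a2, Hk1, Klf4, Myc, Psmb9 and Smpx. Without the libraries of 5.5 days, 7 calls of named genes were lost. These were Acta1, Acta2, Fmod (0.69, adjusted p = 0.0587 in edgeR), Hba-a1, Hba-a2, Myc (0.30) and Smpx. List medians moved by more than the spread between mice in 31 of 681 cases, mostly in single days. That of complex I was -0.317 at 2.5 and 0.153 at 8.5 days, and that of the fibre type factors was -0.0035 with library size alone. The cause was not tested.

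The comparison rests on 6 mice and each day on 2, and an absent call does not show equal levels. The mice are controls on Dox, and sex is not separable from 2.5 days against the later days. Whole muscle does not separate myofibers from other cells.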

Other observations

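Myosin heavy chains outside the 4 adult fibre types were also read, as genes chosen after their values were seen. Myh3, the embryonic chain, had 1.04 to 2.12 FPKM (median 1.68) in EDL and 4.34 to 32.3 FPKM (median 9.76) in SOL muscles (-2.68 ± 0.33, adjusted p = 0.000135), and Myh6, the alpha-cardiac chain that lies beside Myh7 on chromosome 14, had 1.52 to 3.26 FPKM (median 1.98) in EDL and 4.25 to 7.98 FPKM (median 5.88) in SOL muscles (-1.49 ± 0.20, adjusted p = 0.000186). Both were higher in SOL muscles. Myh8, the perinatal chain, had 0.984 to 2.13 FPKM (median 1.47) in EDL and 1.33 to 15.8 FPKM (median 3.01) in SOL muscles and was not called (-1.09 ± 0.44, adjusted p = 0.0642), and neither was Myh13, the extraocular chain, with 2.82 to 7.98 FPKM (median 4.13) in EDL and 1.44 to 5.59 FPKM (median 3.56) in SOL muscles (0.46 ± 0.26, adjusted p = 0.177).

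The genes of the other 2 factors of the 4F set were expressed in both muscles. Klf4 had 7.01 to 17 FPKM (median 9.03) in EDL and 11.1 to 22.6 FPKM (median 14.6) in SOL muscles (-0.57 ± 0.11, adjusted p = 0.00264) and Myc 2.4 to 3.34 FPKM (median 2.78) in EDL and 1.25 to 2.73 FPKM (median 2.2) in SOL muscles (0.59 ± 0.17, adjusted p = 0.0175). Klf4 was under the limit without the mouse of 2.5 days replicate 2 (-0.45), and Myc without the mouse of 5.5 days replicate 2 (0.50). Without all libraries of 5.5 days, Myc differed by 0.30 (adjusted p = 0.18 in edgeR).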
